A study of Homo sapiens with 9 samples.

Results

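Rab GTPases are small GTP-binding proteins that give membranes of the cell their identity and steer vesicles between them. Each Rab is prenylated, is switched on at its membrane by a guanine nucleotide exchange factor (GEF), recruits effectors such as tethers and motors, is switched off by a GTPase-activating protein (GAP), and is then extracted by a GDP dissociation inhibitor (GDI). In epithelial cells, of which urothelium is one kind, Rabs carry membrane proteins to the cell surface and back, and RAB25 and RAB17 are known as Rabs of polarized epithelia. The genes described here were chosen by name alone: RAB, a number and at most 1 letter. This gave 59 genes of 23278 entries other than spike-ins.

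The 9 libraries, in 3 groups of 3 replicates, were made from RT112, an established line of human bladder cancer cells. Controls received a hairpin labelled control (shNT), and the remaining groups received sh1 or sh2, short hairpin RNAs that target STAG2, a subunit of the cohesin ring. In all groups the cells were transduced with their hairpin and then kept in medium without serum, per the labels' protocols. The labels name neither the vector nor a clone, and do not say whether replicates were separate cultures, so p-values reflect only how these samples scatter, and that scatter may be technical. In bulk samples, a change in how many cells express a gene and a change in RNA per cell cannot be told apart.

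Values are FPKM (fragments per kilobase of transcript, scaled to the library's mapped fragments), a level that is set per length and can be compared between genes. STAG2, the targeted gene, stood at 16.8, 34.7 and 27.7 FPKM in the controls, at 3.76 to 5.34 with sh1 and at 3.41 to 4.93 with sh2. Its log2 change was -2.29 with sh1 and -2.43 with sh2 (limma adjusted p = 0.0193 and 0.0231), and -0.13 between the hairpins (limma adjusted p = 0.851). The epithelial markers EPCAM, KRT8, KRT18, KRT19, GATA3, PPARG and FGFR3 were at 24.9 FPKM or more in each library, while 13 markers of immune, fibroblast and endothelial cells reached at most 1.33 FPKM. Summed, the 7 epithelial markers spanned 1507 to 3105 FPKM in the controls, 2041 to 2641 with sh1 and 1865 to 2590 with sh2, and the 5 immune markers 0.732 to 0.786, 1.06 to 1.65 and 0.750 to 0.986. Longer transcripts read lower in shNT replicate 1: Spearman's rho between transcript length and a gene's deviation there was -0.40 (across 10403 genes, not independent of each other), and -0.078 to 0.19 in the other 8 libraries. Over the 45 tested Rab genes it was -0.43 in that library and -0.15 to 0.25 in the others. Relative depth, read from the worth of 1 fragment in low values, differed by up to 1.17-fold between libraries, and absolute depth is unknown.

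RT112 cells expressed most of the Rab family. In the controls, 2 Rab genes (RAB7A and RAB1B) stood above all others, 7 came next down to a mean of 50 FPKM, 20 between 10 and 50, 16 between 1 and 10, and 14 under 1. The 8 highest made up 54.5% of the summed Rab FPKM in the controls. All 59 together summed to 1389 ± 63.0 FPKM in the controls, 1476 ± 56.5 with sh1 and 1247 ± 79.8 with sh2 (SD; n = 3 per group). The sh2 sums, at 1193 to 1339 FPKM, were below all 3 sh1 sums, at 1413 to 1522, and reached into the control range of 1327 to 1453. These sums are of FPKM not scaled to the spike-ins. The spike-in factors, by which values are divided, were 0.889 to 0.922 for sh2 and 1.29 for sh1 replicate 2. After that division the sh2 and sh1 sums overlap.

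RAB7A, which directs traffic to late endosomes and lysosomes, was the highest Rab gene at 192 ± 10.7 FPKM in the controls (SD, n = 3). RAB1B, which acts between the endoplasmic reticulum and the Golgi, followed at 128 ± 24.8, and RAB25, a recycling Rab of epithelia, at 96.3 ± 26.0. The next were RAB5C of early endosomes at 90.2 ± 14.3 FPKM, RAB13, which works at tight junctions and the cell surface, at 71.2 ± 15.0, and RAB11B of recycling endosomes at 62.5 ± 10.3. RAB1A, the partner of RAB1B, had 58.7 ± 8.003 FPKM, and RAB10, which carries cargo to the plasma membrane, had 57.8 ± 6.26 (SD, n = 3 for each). RAB25 and RAB5C, and the run from RAB13 to RAB10, differed between neighbours by less than their SDs, so their order is not resolved by the replicates.

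Among the tissue-restricted members, the paralog pairs and sets were unevenly used. In the RAB3 set, which serves regulated secretion, RAB3D had 10.1 ± 1.79 FPKM and RAB3A 1.20 ± 0.520 in the controls (SD, n = 3 each), while RAB3B reached at most 0.180 in any library and RAB3C was listed at 0 in all 9. RAB27A, which docks secretory granules and exosomes, had 5.78 ± 1.25 FPKM and RAB27B 2.78 ± 0.969. RAB32, a Rab of lysosome-related organelles, had 27.1 ± 14.3 FPKM, and its paralog RAB38 reached at most 0.240. RAB7B was not analysed here.

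**Figure D1:**
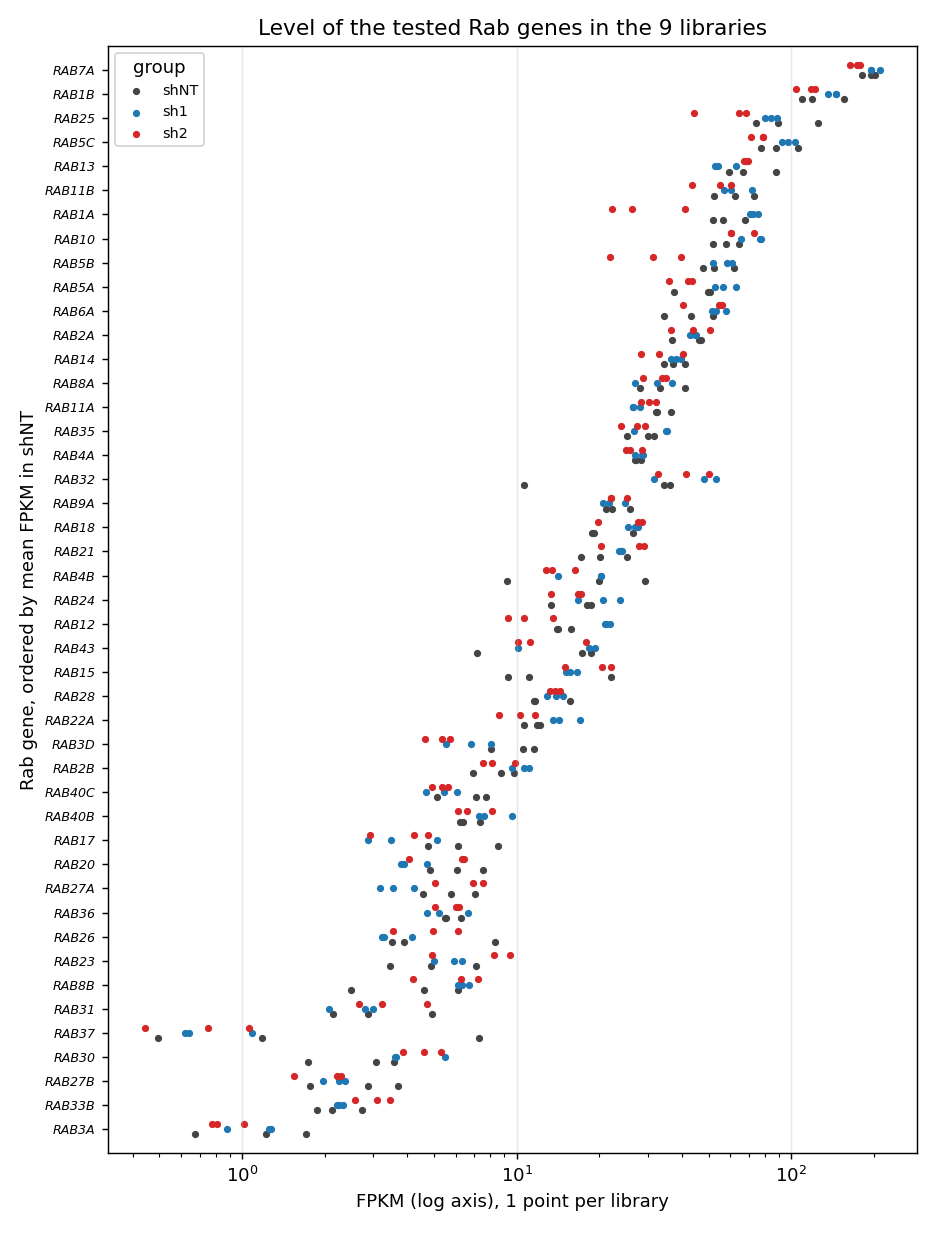
FPKM on a log axis of the 45 tested Rab genes, ordered by their mean in shNT, with 1 point for each library and a colour for each group. Levels run from above 200 FPKM for RAB7A to below 1 for RAB37 and RAB3A, and the 3 sh2 points of RAB1A and RAB5B stand to the left of their sh1 and control points.

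Of the 59 genes, 45 had a mean of at least 1 FPKM over the 9 libraries and entered the test. The others were RAB6B, RAB42, RAB19, RAB41, RAB3B, RAB40A, RAB38, RAB9B, RAB33A, RAB34, RAB6C, RAB39B, RAB3C and RAB39A, with at most 0.706 FPKM in any library. The last gene to enter had a mean of 1.07 FPKM over the 9 libraries and the first one left out had 0.496. Across libraries, the highest value of a tested gene was less than 1.5 times the lowest in 11 of 45 and at least 2 times in 19. At the median it was 1.78 times, and the same figures over all tested genes were not computed. RAB4A, which returns receptors from early endosomes, was the most even, between 25.1 and 28.9 FPKM. RAB37, a secretory Rab, was the least even, with 0.494, 1.18 and 7.27 FPKM in the controls and at most 1.08 in the silenced libraries, so its high value rests on shNT replicate 3.

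The hairpins were compared with each other first, since the comparisons of sh1 and of sh2 with the controls use the same 3 control libraries. The spread was still estimated over all 9 libraries, controls included. Here 2 of 45 Rab genes passed, both lower with sh2, where 0.218% of all 11952 tested genes passed (17 higher and 9 lower). RAB1A, which carries cargo from the endoplasmic reticulum to the Golgi and helps to form autophagosomes, had 75.4, 72.7 and 70.7 FPKM with sh1 against 22.3, 41.0 and 26.2 with sh2. RAB12, which acts in recycling endosomes, lysosomal delivery and autophagy, had 20.9, 21.1 and 21.9 FPKM with sh1 against 9.30, 13.6 and 10.7 with sh2. For both genes all 3 sh1 libraries lay above all 3 controls and all 3 sh2 libraries below them. The controls were 56.5, 67.5 and 52.0 FPKM for RAB1A, and 14.1, 15.7 and 14.0 for RAB12.

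On the log2(FPKM + 1) scale, RAB1A (chromosome 2, 65070696 to 65130331, minus strand, GRCh38) was lower with sh2 than with sh1 by a difference of -1.31 (SE 0.21, limma adjusted p = 0.0451). RAB12 (chromosome 18, 8609437 to 8639382, plus strand, GRCh38) differed by -0.89 (SE 0.14, limma adjusted p = 0.0485). Against the controls, neither passed with either hairpin: RAB1A had 0.32 with sh1 and -0.99 with sh2 (limma adjusted p = 0.524 and 0.372), and RAB12 had 0.52 and -0.37 (limma adjusted p = 0.202 and 0.379). With the replicate number as a block, the limma adjusted p between the hairpins was 0.0452 for RAB1A and 0.0550 for RAB12. Both calls were lost in limma without shNT replicate 2 (0.0711 for RAB1A and 0.0719 for RAB12), sh1 replicate 1 (0.292 for each), sh1 replicate 2 (0.157 and 0.170), sh1 replicate 3 (0.117 and 0.143), sh2 replicate 1 (0.204 and 0.218) or sh2 replicate 3 (0.189 for each). The RAB1A call was also lost without shNT replicate 1 (0.0534). Both were lost with spike-in scaling (0.125 and 0.283) and when low genes were kept in (0.154 and 0.132); RAB1A was lost with quantile normalization (0.0534), and RAB12 with median-of-ratios scaling (0.0529) and a pseudocount of 0.1 (0.0510). The sizes stayed between -1.56 and -1.13 for RAB1A and between -1.03 and -0.75 for RAB12 over all alternatives run.

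**Figure D2:**
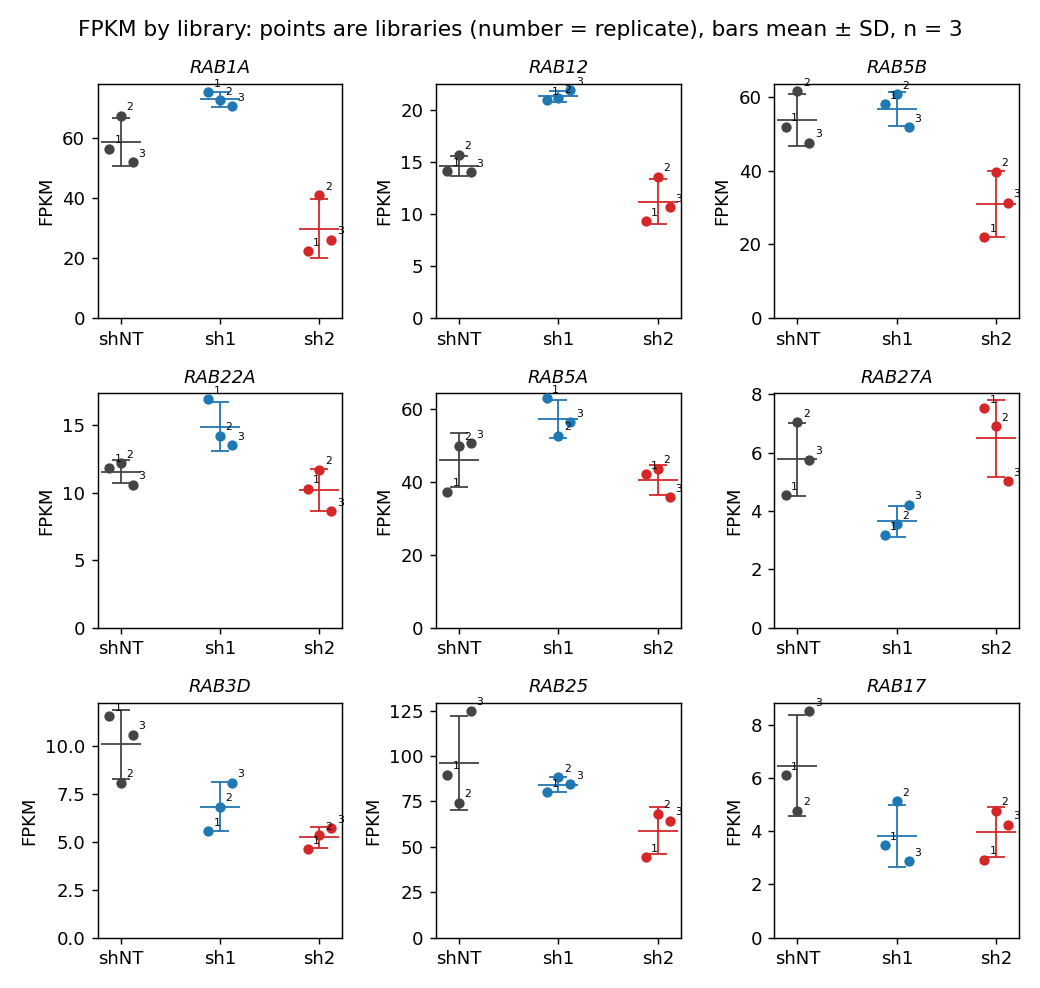
FPKM of 9 Rab genes by group, where points are libraries, digits beside them are replicate numbers, and bars give mean ± SD (n = 3). The sh1 points of RAB1A and RAB12 lie above all controls and the sh2 points below them, and sh2 replicate 2 is the sh2 point nearest the controls in RAB1A, RAB12 and RAB5B.

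Several other Rab genes stood apart between the hairpins without passing. RAB5B of early endosomes had 58.1, 60.8 and 51.8 FPKM with sh1 and 21.9, 39.8 and 31.4 with sh2, a difference of -0.89 (SE 0.20, limma adjusted p = 0.115). RAB22A, an early endosomal and recycling Rab, had 14.9 ± 1.80 FPKM with sh1 and 10.2 ± 1.53 with sh2 (SD, n = 3 for both), which differ by -0.51 (SE 0.15, limma adjusted p = 0.192). RAB27A went the other way, with 3.18, 3.55 and 4.21 FPKM with sh1 and 7.53, 6.92 and 5.02 with sh2, a difference of 0.68 (SE 0.19, limma adjusted p = 0.172). With array weights RAB5B and RAB27A passed as well (limma adjusted p = 0.0271 and 0.0404). With these weights 458 of all 11952 tested genes passed, against 26 in the main fit. In each of these 3 genes the sh1 and sh2 libraries did not overlap.

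All 3 sh2 libraries lay below all 3 sh1 libraries in 9 of 45 Rab genes, which is 20.0%, against 15.3% of all tested genes. They lay above them in 4, which is 8.89%, against 13.3%. The 9 were RAB1A, RAB1B, RAB5A, RAB5B, RAB5C, RAB7A, RAB12, RAB22A and RAB25, and the 4 were RAB11A, RAB13, RAB27A and RAB33B, the last being a Golgi and autophagy Rab that was chosen after its values were seen. The median log2 difference over the tested Rab genes was -0.093, with 30 of 45 below 0, beside -0.0072 and 51.1% below 0 over all tested genes. Scaled to the spike-ins, the median of all genes became 0.12 and the Rab median 0.020, with 21 of 45 below 0.

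**Figure D3:**
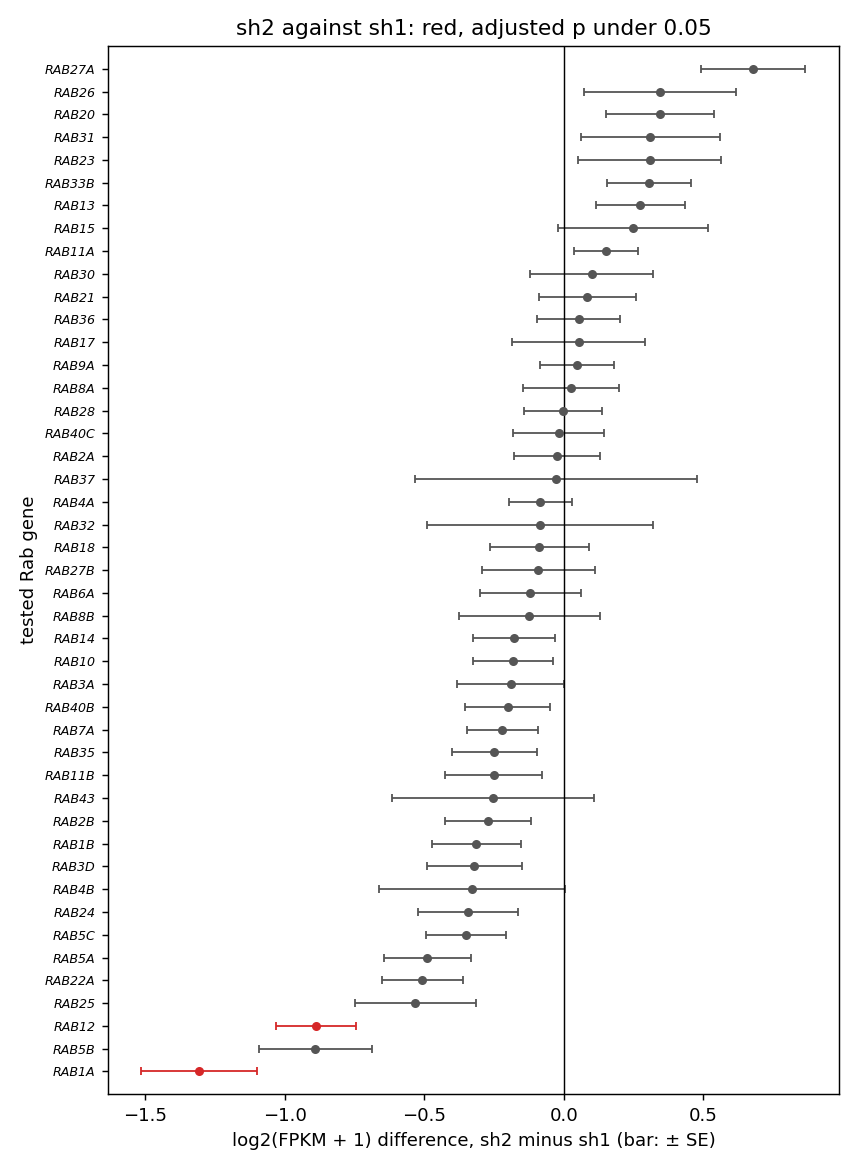
Difference between sh2 and sh1 on the log2(FPKM + 1) scale for each of the 45 tested Rab genes, with bars of ± 1 SE and the 2 genes with an adjusted p under 0.05 in red. RAB1A at -1.31, RAB5B and RAB12 at -0.89 stand at the low end and RAB27A at 0.68 at the high end.

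The RAB5 paralogs, which share the early endosome, were all lower in the sh2 than in the sh1 libraries, but by unequal amounts. The log2 differences were -0.89 for RAB5B, -0.49 for RAB5A (limma adjusted p = 0.222) and -0.35 for RAB5C (limma adjusted p = 0.315). Summed over the 3 genes, there were 195, 200 and 175.5 FPKM in the controls, 224, 210 and 201 with sh1 and 135, 162 and 146 with sh2. As FPKM not scaled to the spike-ins, the sh2 sums lay below all other libraries. Divided by the spike-in factors, they overlap those of the control and sh1 libraries. RAB5B made up 28.3% ± 2.31 of the sum in the controls, 26.9% ± 1.75 with sh1 and 20.7% ± 4.204 with sh2 (SD; n = 3 per group). RAB1A and RAB1B showed a like shift in makeup, which restates the RAB1A difference above and is no separate result. RAB1A made up 31.7% ± 4.89 of their sum in the controls, 33.9% ± 0.496 with sh1 and 20.4% ± 4.70 with sh2 (SD, n = 3 per group). RAB1B itself had 114 ± 9.33 FPKM with sh2 and 142 ± 5.36 with sh1, a difference of -0.31 (limma adjusted p = 0.406).

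**Figure D4:**
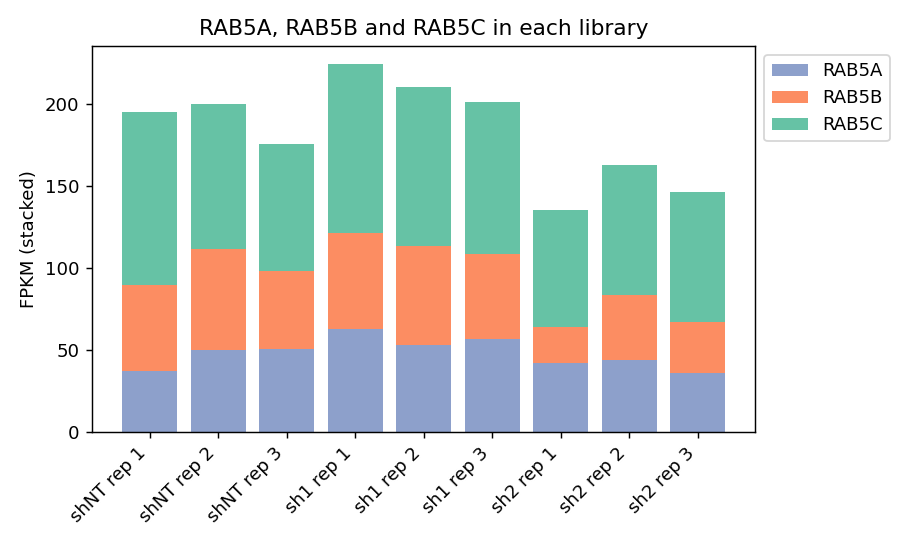
Stacked FPKM, not scaled to the spike-ins, of RAB5A, RAB5B and RAB5C in each of the 9 libraries, from 0. The 3 sh2 bars, at 135 to 162 FPKM, are below the 6 others, at 175.5 to 224, and the RAB5B segment is smallest in them.

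An annotated promoter of RAB5B is shown because this gene had the largest difference between the hairpins among Rab genes matched in the RefSeq promoter table. It spans chr12:55973828-55974127 on the plus strand (GRCh38.p14), from 250 bases before to 50 after a start of the gene. Another, overlapping RAB5B window, at chr12:55973699-55973998, is not shown. Capitals mark 3 CCAAT boxes (CCAAT, or ATTGG on the other strand) and 1 GC box (CCGCCC, or GGGCGG on the other strand).
RAB5B: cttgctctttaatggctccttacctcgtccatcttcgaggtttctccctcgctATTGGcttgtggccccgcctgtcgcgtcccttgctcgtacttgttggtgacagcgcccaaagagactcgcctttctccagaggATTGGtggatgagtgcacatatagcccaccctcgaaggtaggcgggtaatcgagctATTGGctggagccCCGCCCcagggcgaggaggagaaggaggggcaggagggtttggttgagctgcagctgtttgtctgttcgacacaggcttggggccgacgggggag
Of the 59 genes, 47 matched the table by symbol, with 67 promoters. A CCAAT box on either strand was in 31.3% of these promoters and in 34.6% of all 35116 promoters of the same length. A GC box was in 76.1% and in 44.95%. These matches describe the letters of the windows only, and all promoters include those of genes that RT112 does not express.

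In the comparison of sh1 with the controls, 0 of 45 Rab genes passed in limma, where 0.167% of all tested genes did. At an unadjusted p under 0.05 there were 8 Rab genes, which is 17.8%, against 13.5% of all tested genes. All 3 sh1 libraries lay above all controls in 7 Rab genes (15.6%, against 8.7% of all tested genes) and below them in 3 (6.67%, against 8.97%). The 7 were RAB1A, RAB5A, RAB8B, RAB10, RAB12, RAB22A and RAB30, and the 3 were RAB11A, RAB20 and RAB27A; RAB8B, a partner of RAB8A in traffic to the plasma membrane, and RAB20 were chosen after their values were seen. The median log2 change was 0.056, beside -0.0074 over all tested genes, and 0.17 when scaled to the spike-ins, where that of all genes was 0.096.

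By role, 0 of 9 tested Rabs of the endoplasmic reticulum and Golgi had a fitted log2 change below 0 with sh1, against 51.0% of all tested genes, and their median was 0.27. All 3 sh1 libraries lay above all controls in 2 of these 9. Of 10 secretory and plasma membrane Rabs, 8 had a fitted change below 0, with a median of -0.26. All 3 sh1 libraries lay below all controls in 1 of the 10, RAB27A, and above them in 2, RAB8B and RAB10. Of all tested genes, 8.97% lay below and 8.7% above in this way. None of these Rab genes passed. Scaled to the spike-ins, the fitted change was below 0 in 0 of 9 and 6 of 10. The group medians were then 0.38 and -0.16, where that of all genes itself rose to 0.096. RAB27A had 4.55, 7.05 and 5.76 FPKM in the controls against 3.18 to 4.21 with sh1, a log2 change of -0.53 (SE 0.19, limma adjusted p = 0.269). RAB11A, the general recycling Rab, had 36.5, 32.2 and 32.4 FPKM in the controls against 26.5, 26.6 and 28.1 with sh1, a log2 change of -0.31 (SE 0.12, limma adjusted p = 0.301). RAB10 had 51.7, 57.6 and 64.2 FPKM in the controls and 77.4, 65.8 and 76.7 with sh1, a log2 change of 0.34 (SE 0.14, limma adjusted p = 0.347).

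In the comparison of sh2 with the controls, which are the same 3 libraries as for sh1, 0 of 45 Rab genes passed in limma, where 0.00837% of all tested genes (STAG2 alone) did. At an unadjusted p under 0.05 there were 7 Rab genes, which is 15.6%, against 12.7% of all tested genes. All 3 sh2 libraries lay below all controls in 8 Rab genes (17.8%, against 8.54% of all tested genes) and above them in RAB30 (2.22%, against 6.67%). The 8 were RAB1A, RAB3D, RAB5B, RAB7A, RAB11A, RAB12, RAB17 and RAB25. The median log2 change was -0.066, beside -0.012 over all tested genes, and 0.18 when scaled to the spike-ins, where that of all genes was 0.22.

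Of 15 tested Rabs of early and recycling endosomes, 12 had a fitted log2 change below 0 with sh2, against 51.8% of all tested genes, and their median was -0.17. All 3 sh2 libraries lay below all controls in 4 of the 15, and the others overlapped them. None of them passed, and the direction depends on the scaling: relative to the spike-ins the change was below 0 in 4 of 15, with a median of 0.091 beside 0.22 for all genes. RAB5B had 52.1, 61.7 and 47.7 FPKM in the controls, above its 3 sh2 values, and a log2 change of -0.81 (SE 0.20, limma adjusted p = 0.372). RAB25 had 89.7, 74.3 and 125 FPKM in the controls and 44.2, 68.2 and 64.5 with sh2, a log2 change of -0.69 (SE 0.22, limma adjusted p = 0.372). In its sh1 libraries, at 80.1 to 88.3 FPKM, RAB25 stayed within the control range, with -0.16 (SE 0.22, limma adjusted p = 0.777). RAB7A had 181 to 202 FPKM in the controls and 164 to 177 with sh2, a small difference of -0.16 (SE 0.13, limma adjusted p = 0.561).

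The promoter of RAB25 in the same table spans chr1:156060910-156061209 on the plus strand and is shown as that of the epithelial member of the family. Among the 67 matched promoters of 47 Rab genes, it was the only 1 with the cAMP response element core TGACGTCA (capitals). That is 1.49% of them, near the 1.85% of all promoters. The RAB25 promoter held no CCAAT or GC box.
RAB25: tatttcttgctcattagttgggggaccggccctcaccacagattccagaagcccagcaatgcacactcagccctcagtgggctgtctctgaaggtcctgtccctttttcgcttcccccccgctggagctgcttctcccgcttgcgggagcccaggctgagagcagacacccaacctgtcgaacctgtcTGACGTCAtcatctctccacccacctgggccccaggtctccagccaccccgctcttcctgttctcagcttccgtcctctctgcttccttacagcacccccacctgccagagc

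Over both hairpins, 0 of 45 Rab genes passed in limma, where 0.00837% of all tested genes did, and 6 had an unadjusted p under 0.05 (13.3%, against 12.6%). RAB3D, which sits on secretory granules, had the smallest p. It stood at 11.5, 8.08 and 10.6 FPKM in the controls, at 5.55, 6.82 and 8.08 with sh1 and at 4.62, 5.33 and 5.71 with sh2. The highest sh1 value just met the lowest control, and the sh2 values lay below all controls. The log2 change was -0.66 (SE 0.15, limma adjusted p = 0.314), with -0.50 for sh1 and -0.82 for sh2 (limma adjusted p = 0.264 and 0.372). In the GENCODE annotation, RAB3D (chromosome 19, 11322046 to 11346270, minus strand, GRCh38) overlaps TMEM205 on the same strand. The RefSeq table places a RAB3D promoter inside that span, at 11339608 to 11339907, so the overlap may depend on the annotation. TMEM205 had 53.5 ± 18.4 FPKM in the controls, 25.5 ± 5.16 with sh1 and 30.3 ± 2.31 with sh2 (SD over 3 libraries). Its log2 fold change was -0.87 (limma adjusted p = 0.314). The authors' annotation is not known, and their assignment of shared fragments was not tested.

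RAB17, an epithelial Rab of transcytosis, had 6.11, 4.77 and 8.51 FPKM in the controls, 2.87 to 5.12 with sh1 and 2.92 to 4.76 with sh2. Its log2 change was -0.60 (SE 0.21, limma adjusted p = 0.342), and the groups overlapped in 1 sh1 library. RAB30, a Golgi Rab, had 3.08, 3.58 and 1.74 FPKM in the controls, 3.61 to 5.49 with sh1 and 3.85 to 5.30 with sh2. It was the 1 Rab gene with all 6 silenced libraries above all controls (2.22%, against 2.28% of all tested genes), with a log2 change of 0.53 (SE 0.19, limma adjusted p = 0.346). RAB11A was the 1 with all 6 below (2.22%, against 2.17%), with -0.23 (SE 0.10, limma adjusted p = 0.391). Both shares were near those of all tested genes. The Rab median was -0.020, beside -0.017 over all tested genes, and turned to 0.049 without shNT replicate 1 and to 0.17 with spike-in scaling (0.15 for all genes).

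RAB32 showed how much a single control can weigh. It had 34.4, 36.1 and 10.7 FPKM in the controls, 31.5 to 53.1 with sh1 and 32.6 to 50.04 with sh2. Its log2 change of 0.79 (SE 0.35, limma adjusted p = 0.394) over both hairpins thus includes a control, shNT replicate 3, that stood at less than any other library, while the other controls lay within the silenced range.

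The genes that act on Rabs were taken from lists of their regulators and effectors, and none passed in any of the 4 comparisons. Over both hairpins the medians were -0.092 for 8 genes of prenylation and GDP dissociation, 0.021 for 28 GEFs, 0.052 for 32 GAPs, 0.16 for 45 effectors and 0.014 for 7 Rab-like genes. Of the effectors, 14 of 45 had a fitted change below 0 over both hairpins, against 52.7% of all tested genes, with the effector median at 0.13 for sh1 and 0.14 for sh2. With median-of-ratios scaling 13 of 45 were below 0, and with quantile normalization 14. With spike-in scaling 3 were, where the median of all genes itself rose to 0.15 and that of the effectors was 0.33. None of these scalings adjusts for the trend with transcript length in shNT replicate 1. Among GEFs, DENND1B, which activates RAB35, had 1.29, 2.44 and 1.99 FPKM in the controls, 3.27 to 4.39 with sh1 and 2.89 to 3.75 with sh2, with all 6 silenced libraries above all controls. Its log2 change was 0.68 (SE 0.16, limma adjusted p = 0.314). DENND5A, a GEF for Rabs such as RAB39A and RAB39B, had 0.46 (SE 0.12, limma adjusted p = 0.318).

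Among the GAPs, TBC1D8 had 21.98 ± 4.998 FPKM in the controls, 14.3 ± 2.14 with sh1 and 14.7 ± 1.54 with sh2 (SD; n = 3 per group), and all 6 silenced libraries were below all controls (log2 fold change -0.55, SE 0.15, limma adjusted p = 0.326). TBC1D13, a GAP for RAB35, had -0.41 (SE 0.13, limma adjusted p = 0.339). Among effectors, BICD1, a dynein adaptor bound by RAB6, had 0.47 (SE 0.16, limma adjusted p = 0.340), and MYO5A, a myosin motor that Rabs attach to vesicles, had 0.72 (SE 0.25, limma adjusted p = 0.342). Of the prenylation and GDI genes, RABAC1, a prenylated Rab acceptor, had -0.32 (SE 0.15, limma adjusted p = 0.406). Of the Rab-like genes, IFT27 and RABL2B, both ciliary transport proteins, had -0.40 (SE 0.13, limma adjusted p = 0.328) and 0.23 (SE 0.14, limma adjusted p = 0.474).

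Some genes share sequence with others, and the sources used here do not give how the authors' counting split such fragments. On the same strand in GENCODE, RAB24 overlaps MXD3 (up to 55.6 FPKM), and RAB43 shares its gene with the read-through entry ISY1-RAB43 (up to 25.2 FPKM). RAB43 varied from 7.16 to 19.3 FPKM, while ISY1-RAB43 had 23.4 ± 1.89 in the controls (SD, n = 3). RAB4B overlaps RAB4B-EGLN2, and RAB6C is a close copy of RAB6A, so the values of these members are uncertain in the same way.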

How the data were processed

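The authors deposited 1 table of FPKM values for 9 poly(A)+ RNA libraries (23370 entries, 92 of them spike-ins), with replicates separate. Per the submitters' processing notes the build was hg19. Aligner, counting program and annotation were "not given in the sources used here". Values that had lost their decimal point were divided by 1000 where that lay nearer the median of the gene's other values. Where a gene had no other nonzero value with a decimal point, they were divided if at least 1000. In all, 10255 values were divided, 1329 of them without such a reference, including 41 of 531 Rab values in 19 genes. Among the Rab values only the 9 of RAB1B had no reference. Genes with a mean of at least 1 FPKM (11952) were tested on log2(FPKM + 1) in limma 3.58.1 (R 4.3.3), with group as the only factor over all 9 libraries, a variance trend, two-sided tests and Benjamini-Hochberg adjustment over all tested genes (threshold 0.05). Fold changes understate the change of low genes. The script was tested on simulated data. Python 3.11.15 read the tables, and GENCODE gave positions (GRCh38).

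Named genes were the 8 highest in the controls, those that passed and the 5 with the smallest p per comparison, set paralogs, and 2 per regulator list over both hairpins; some items that this rule or the marker lists cover are not reported here. Members and lists were chosen with earlier results of these data known. Same-numbered libraries of different groups deviated together, with Pearson's r from 0.118 to 0.491 in 9 of 9 pairs (from the data and not the labels). Pairs with different numbers had r from -0.629 to 0.205. The match was weaker for the controls: shNT replicate 2 had 0.172 with sh1 replicate 1 and 0.118 with sh1 replicate 2. The fit with a replicate block is therefore given where it changes a call. The alternatives were other pseudocounts, filters, scalings, weights and library sets.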

Additional observations from a re-analysis of the deposited data

Results flagged for a closer look

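The effects of the 2 hairpins differed in RAB1A and RAB12, by the test of sh2 against sh1 itself. RAB1A differed by -1.31 on the log2(FPKM + 1) scale (SE 0.21, limma adjusted p = 0.0451), with a mean of 72.9 ± 2.38 FPKM in sh1 and 29.8 ± 9.90 in sh2 libraries (SD, n = 3 each), and was lower in 3 of 3 sh2 libraries than in any sh1 library. RAB12 differed by -0.89 (SE 0.14, limma adjusted p = 0.0485), with 21.3 ± 0.509 and 11.2 ± 2.18 FPKM, and was also lower in 3 of 3. These 2 were the Rab genes whose sh1 and sh2 libraries lay on opposite sides of all controls. The share of all tested genes with that pattern was not counted, so whether 2 of 45 is unusual is unknown. Over the alternatives the limma adjusted p ranged from 0.00863 to 0.292 for RAB1A and from 0.00863 to 0.295 for RAB12. The STAG2 difference between the hairpins was -0.13 (limma adjusted p = 0.851).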

How the results depend on the processing

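The count of Rab genes called was 0 under all alternatives run for each hairpin and for both against the controls. Between the hairpins the main count of 2 became 1 with a pseudocount of 0.1, median-of-ratios scaling, quantile normalization or the replicate block, 0 without a filter on low genes or with spike-in scaling, and 4 with array weights, and went from 0 to 2 on leaving out 1 library. The cause was not tested. The block changed no other Rab call. Counts over all genes, in the order sh1, sh2, both and sh2 against sh1, were 20, 1, 1 and 26. They were 3 (sh1) with a pseudocount of 0.1 and 3 (sh1) with restored genes left out. They were 3, 5 and 2 (sh2, both and sh2 against sh1) without a filter, 0, 0 and 2 (sh1, sh2 and sh2 against sh1) with spike-in scaling, and 0, 0 and 92 in fits of the compared groups alone. They were 458 (sh2 against sh1) with array weights, and 77 and 17 (sh1 and sh2 against sh1) with the replicate block. On leaving out 1 library they ranged from 0 to 14, 0 to 6, 0 to 3 and 0 to 52. The STAG2 call was lost without a filter (-2.29, -2.43 and -2.36; limma adjusted p = 0.0742, 0.249 and 0.0852), and for each hairpin with spike-in scaling (-2.17 and -2.20) and in fits of the compared groups alone (-2.29 and -2.43). Leaving out 1 library, STAG2 ranged from -2.57 to -2.07, -2.71 to -2.21 and -2.64 to -2.14. Its call for sh1 was then lost without shNT replicate 2 (limma adjusted p = 0.0667), shNT 3 (0.0907), sh1 1 (0.187), sh1 2 (0.0850), sh2 1 (0.0622) or sh2 3 (0.0564). That for sh2 was lost without shNT 3 (0.1135), sh1 1 (0.0709), sh1 2 (0.0771), sh1 3 (0.0556), sh2 1 (0.246), sh2 2 (0.0730) or sh2 3 (0.218), and that for both without shNT 3 (0.0556). The Rab median of 0.056 (sh1) was 0.12 with a minimum mean of 5 FPKM and 0.17 with spike-in scaling, and from 0.028 to 0.11 leaving out 1 library. That of sh2, -0.066, was 0.18 with spike-in scaling (from -0.096 to -0.029 leaving out 1 library), that of both, -0.020, was 0.17 (from -0.043 to 0.049 leaving out 1 library), and that of sh2 against sh1 was -0.18 with the higher minimum and 0.020 with spike-in scaling (from -0.16 to -0.054 leaving out 1 library). Leaving out replicate set 2 from all 3 groups, chosen after seeing the data, gave 0 calls among Rab and all genes in each comparison, STAG2 values of -2.04, -2.35 and -2.19 (sh1, sh2 and both), and a Rab median of -0.18 between the hairpins, where RAB1A had -1.56 and RAB12 -1.03. Arms left with few libraries borrow the spread of the other groups. Absolute depth is unknown, so no counting error is given for low genes such as RAB3A.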

Other observations

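RABL3, a Rab-like gene outside the naming pattern and chosen after its values were seen, had 16.2, 12.7 and 14.9 FPKM in the sh1 libraries, 5.45, 8.12 and 7.46 in the sh2 libraries and 10.1, 10.6 and 11.4 in the controls. Its log2 difference between sh2 and sh1 was -0.97 (SE 0.16, limma adjusted p = 0.0501). Its sh1 libraries lay above all controls and its sh2 libraries below them, as in RAB1A and RAB12, a pattern not counted over all tested genes.

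MON1A, part of the exchange factor that activates RAB7A and likewise chosen after its values were seen, had 4.94, 3.24 and 3.04 FPKM in the controls, 3.80 to 4.04 with sh1 and 1.09, 2.21 and 1.66 with sh2. It had a log2 difference of -0.91 between sh2 and sh1 (SE 0.20, limma adjusted p = 0.102) and of -0.84 between sh2 and the controls (SE 0.20, limma adjusted p = 0.372). TBC1D15, a GAP that acts on RAB7A, went the other way between the hairpins, with 4.03 ± 0.769 FPKM in sh1 and 6.80 ± 0.688 in sh2 libraries (SD, n = 3 each), a log2 difference of 0.64 (SE 0.15, limma adjusted p = 0.119).

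RAB38, too low to be tested, had 0.205, 0.213 and 0.240 FPKM in the sh1 libraries and at most 0.0769 in the other 6. RAB6B, also too low to be tested, had 0.606 to 0.655 FPKM with sh1 and at most 0.578 in the other 6. Both were picked out after their values were seen, and the pattern was not counted over all genes.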
